A study of Mus musculus with 6 samples.

Results

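Adhesion G protein-coupled receptors (adhesion GPCR) were followed in CD4+ splenic dendritic cells (DC) that lacked Runx3 and in WT cells. The receptor genes described are Adgre1, Adgre4, Adgre5, Adgrl1, Adgrl2, Adgrg1, Adgrg3, Adgrg6 and Adgrf5. A gene was counted as measured where a probe set, a group of array probes summarised together, was annotated with its symbol alone. By this rule these 9 genes, of 10 listed, were measured by 16 probe sets, among 19938 genes and 21789 probe sets annotated with a single symbol in the whole series. The listed genes were picked by family and not by their values.

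Each of the 6 arrays held RNA of CD4+ DC from 1 male mouse of 6 weeks. The 3 Runx3-/- mice lacked the transcription factor Runx3 in the germ line, so that all cells of the animal and not the DC alone were mutant, and the 3 WT (Runx3 +/+) mice were their litter mates. Numbers 1 to 3 name the litter. DC were enriched on magnetic beads and sorted for CD11c and MHCII, then by CD4 and CD8, and the labels also mention an Esam population without saying how it entered the gate. No treatment was given in the labels, and the mouse strain was not stated there.

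Adhesion GPCR carry a long extracellular part with adhesion modules and an autoproteolysis-inducing domain. This domain cuts many of them into an outer fragment and a membrane-spanning fragment that stay together, and a tethered peptide next to the cut can switch on G protein signalling once the outer fragment binds a ligand or is pulled. The E subfamily is typical of myeloid cells. Its best known member, Adgre1 (F4/80), marks macrophages of many mouse tissues, among them those of the splenic red pulp. Adgre4 (FIRE) is found on myeloid cells of the mouse, including the CD8- DC of the spleen.

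Runx3 itself was checked first. Its probe set read 9.16, 9.30 and 9.16 in Runx3-/- arrays, against 11.24, 11.22 and 11.11 in WT arrays (log2 scale of the deposited values). The groups did not overlap, and every array matched its label. The log2 change was -1.98 (standard error, SE, 0.077), which left 25.3% of the WT level, at an adjusted p of 0.0027 (limma with Benjamini-Hochberg adjustment over 19149 tested probe sets). A probe set counted as tested where it reached a log2 value of 6.5, the background given by the study's methods, on at least 1 array. Of all tested probe sets 298, or 1.56%, passed an adjusted p of 0.05, with 0.856% higher and 0.7% lower in Runx3-/- DC. At an unadjusted p of 0.05 the same fit had 3042 of the 19149, the share that stands beside the limma counts at that limit below. With the litter as a block in the fit, Runx3 had an adjusted p of 0.061 and 0 probe sets passed, against 3430 at an unadjusted p of 0.05, so every call given here is from the fit without the block. Array medians lay between 6.57 and 6.65. The deposited values had already been brought to a common distribution, so these medians do not show that the arrays were alike. Array Runx3-/- 3 stood apart in markers of plasmacytoid DC. Siglech, a surface lectin of those cells, read 7.46, 8.18 and 10.18 in Runx3-/- arrays, against 7.45, 7.40 and 7.43 in WT arrays. Without that array limma called 1 probe set, that of Runx3 (adjusted p 0.043), so every other call given here is lost, with 2457 probe sets at an unadjusted p of 0.05. Changes of the receptors without it stand beside their results.

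Adgre4 and Adgrg6 were the listed receptors whose RNA was higher in Runx3-/- DC, about 3-fold each, while Adgre1 and Adgre5 differed little between genotypes. Of the 9 measured genes, 5 reached background, each with 1 probe set and each on all 6 arrays. Of these 5, 2 passed the adjusted threshold, both higher in Runx3-/- DC, and 0 were lower, against 1.56% of all tested probe sets. A looser pair of limits named in the methods (a change of at least 1.5-fold and p of at most 0.05 before adjustment) was passed by the same 2 genes, against 3.95% of all tested probe sets. The median change of the 5 genes was 0.013, beside -0.035 over all tested probe sets. In bulk RNA of this kind, a different number of cells that express a gene and a different amount of RNA per cell cannot be told apart.

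The stretches just before the transcription start of the 2 receptor genes that were higher in Runx3-/- DC are shown because they differ in kind. They were taken from RefSeq (GRCm38.p6), on the strand of the gene and running up to the base before the start. CG dinucleotides are in capitals. The Adgre4 window lies at chr17:55749734-55749983 on the plus strand and the Adgrg6 window at chr10:14545037-14545286 on the minus strand.
Adgre4: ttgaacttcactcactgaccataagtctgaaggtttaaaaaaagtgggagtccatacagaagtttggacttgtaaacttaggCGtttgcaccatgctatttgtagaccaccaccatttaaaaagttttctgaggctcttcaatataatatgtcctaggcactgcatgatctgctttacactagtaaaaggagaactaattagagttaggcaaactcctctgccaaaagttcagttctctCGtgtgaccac
Adgrg6: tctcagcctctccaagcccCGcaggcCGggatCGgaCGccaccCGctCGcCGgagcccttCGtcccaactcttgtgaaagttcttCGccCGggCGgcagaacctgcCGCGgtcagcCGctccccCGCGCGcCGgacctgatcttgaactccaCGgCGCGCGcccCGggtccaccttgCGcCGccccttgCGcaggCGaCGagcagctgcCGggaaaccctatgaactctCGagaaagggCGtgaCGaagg
The Adgre4 window had 39.6% G and C and 2 CG dinucleotides. The Adgrg6 window had 69.6% G and C and 32 CG dinucleotides, and the medians over 32851 such windows of annotated genes were 52.4% and 6. Neither window held the letters TGTGGT, the core bound by RUNX proteins, on either strand, letters which occurred in 14.0% of all windows. Nor did either hold GAGGAA, an Ets-type core (23.3% of all windows), TGACGT (6.47%) or the TATA box letters TATAAA (12.4%). The Adgrg6 window held the GC box letters GGGCGG at 2 places, on opposite strands, at 160 to 155 and 71 to 66 bases before the start, and 32.7% of all windows held them. Windows of 7 of the 9 measured genes, 9 windows in all, were searched on both strands. TGTGGT occurred in 0 of them, and matches of different motifs did not overlap. A match describes letters and not a bound site, and Adgre1 and Adgre5 were not in the table of windows.

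Within the E subfamily, Adgre4 was the receptor that moved. Its probe set (10445953) read 12.17, 12.19 and 12.00 in Runx3-/- arrays, against 10.22, 10.79 and 10.20 in WT arrays. All 3 Runx3-/- arrays lay close together and above every WT array, with a gap of 1.21 between the groups, and WT 2 was the highest of the WT arrays. Means were 12.12 ± 0.10 in Runx3-/- and 10.40 ± 0.34 in WT DC (SD, n = 3 each). The log2 change was 1.72 (SE 0.173), or 3.30-fold higher in Runx3-/- (95% interval 2.47 to 4.41), at an adjusted p of 0.0173 (limma). Within litters 1, 2 and 3 the differences were 1.95, 1.40 and 1.81. With the litter as a block in the fit the change stayed at 1.72 and the adjusted p was 0.074, and without Runx3-/- 3 the change was 1.78 with an adjusted p of 0.062, so neither of these fits called it. Over 14 other settings the adjusted p ran between 0.0043 and 0.122, and 8 of them kept the call.

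**Figure D1:**
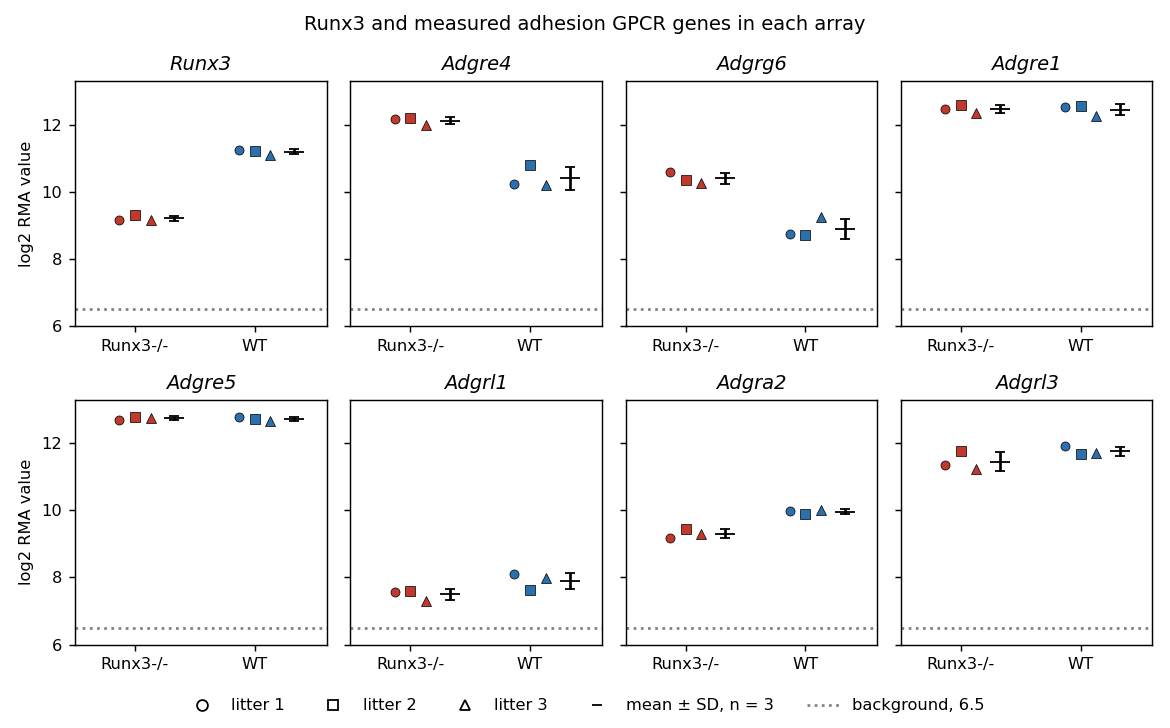
Log2 RMA value (vertical axis) of Runx3, of the 5 listed receptor genes above background and of Adgra2 and Adgrl3, one panel a gene, in Runx3-/- and WT arrays. Each symbol is 1 array and its shape names the litter, bars give the mean ± SD (n = 3) and the dotted line marks the background of 6.5; the 3 Runx3-/- arrays of Adgre4 sit between 12.00 and 12.19, above all WT arrays.

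Adgre1 encodes F4/80 itself. It read 12.46, 12.58 and 12.35 in Runx3-/- arrays, against 12.54, 12.54 and 12.26 in WT arrays. The groups overlapped almost completely, and array 3 was the lowest in both genotypes. The log2 change was 0.013 (SE 0.109, 95% interval from -0.25 to 0.28), at an adjusted p of 0.97 (limma). This interval leaves room for changes of up to about 1.21-fold. The estimate turned negative without Runx3-/- 2 (-0.045) and without WT 3 (-0.079).

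Adgre5 encodes CD97, a receptor of many leukocytes that binds CD55 on neighbouring cells. It read 12.68, 12.79 and 12.75 in Runx3-/- arrays, against 12.79, 12.73 and 12.67 in WT arrays. The groups overlapped, with an SD of 0.055 in Runx3-/- and 0.062 in WT DC. The log2 change was 0.013 (SE 0.071, 95% interval from -0.16 to 0.18), at an adjusted p of 0.95 (limma), and it turned negative without Runx3-/- 2 (-0.013) and without WT 3 (-0.018).

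That Adgre4 passed the threshold and its relatives did not does not by itself show a difference, so the within-array differences of log2 values were compared. The offset between a pair of probe sets also holds their unequal probes, and only its change between genotypes was read. Adgre1 minus Adgre4 was 0.34 ± 0.05 in Runx3-/- and 2.05 ± 0.28 in WT arrays (SD, n = 3 each), a difference of -1.71. Adgre4 minus Adgre5 was -0.62 ± 0.12 in Runx3-/- and -2.33 ± 0.34 in WT arrays, a difference of 1.71. For both pairs all Runx3-/- arrays lay on one side of all WT arrays, which gives 0.1 in the exact two-sided permutation test, the smallest p that 3 arrays against 3 allow, and 0.14 after adjustment over 7 pairs. Leaving out 1 array at a time kept these differences between -1.85 and -1.57 and between 1.58 and 1.90. Adgre1 minus Adgre5 was -0.28 ± 0.10 in Runx3-/- and -0.28 ± 0.11 in WT arrays, a difference of 0.0007 with an exact permutation p of 1.

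Of the G subfamily, Adgrg6 was the member above background. It encodes GPR126, known from mouse and zebrafish for its need in Schwann cells that form myelin, and it binds type IV collagen and laminin-211. Its probe set (10367982) read 10.59, 10.35 and 10.27 in Runx3-/- arrays, against 8.73, 8.70 and 9.25 in WT arrays. The groups did not overlap, and WT 3 was the highest of the WT arrays. The log2 change was 1.51 (SE 0.17), or 2.85-fold higher in Runx3-/-, at an adjusted p of 0.021 (limma). Every litter showed the direction. With the litter as a block the adjusted p was 0.093, and without Runx3-/- 3 the change was 1.58 and missed the threshold. Over 14 other settings the change ran between 1.42 and 1.69 and the adjusted p between 0.0061 and 0.126, and 7 settings kept the call.

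**Figure D2:**
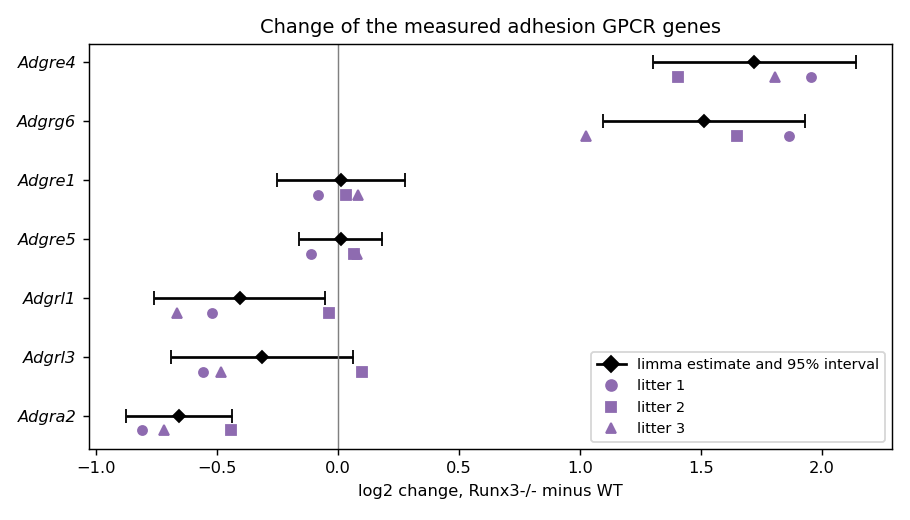
Log2 change, Runx3-/- minus WT (horizontal axis), of the 5 listed receptor genes above background and of Adgrl3 and Adgra2. Diamonds and bars give the limma estimate with its 95% interval, and the symbols below them the difference within each litter; Adgre4 and Adgrg6 lie above 1 in all 3 litters, and the intervals of Adgre1 and Adgre5 span 0.

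Adgrg1 (GPR56) serves the growing cerebral cortex as a receptor of type III collagen and is found on cytotoxic lymphocytes of humans, and Adgrg3 (GPR97) is known from granulocytes. Adgrg1 read 5.50, 5.38 and 5.52 in Runx3-/- arrays, against 5.33, 5.37 and 5.25 in WT arrays. Adgrg3 read 5.64, 5.70 and 5.68 in Runx3-/- arrays, against 5.77, 5.83 and 5.72 in WT arrays. All of these values lay below the background of 6.5, so neither gene was tested and no fold is given. In the RefSeq order of genes, Adgrg1 and Adgrg3 stand next to each other on chromosome 8, and the nearest tested genes on either side were Ccdc102a at -0.17 (adjusted p 0.66) and Kifc3 at 0.011 (adjusted p 0.97, limma), so no tested neighbour of this pair passed the threshold.

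Of the latrophilins, receptors that bridge cells by binding teneurins and FLRT proteins, Adgrl1 was above background and Adgrl2 was not. Adgrl1 read 7.58, 7.60 and 7.31 in Runx3-/- arrays, against 8.10, 7.63 and 7.97 in WT arrays. The groups were apart by only 0.035, because WT 2 lay next to Runx3-/- 2. Of all tested probe sets 22.4% had groups that did not overlap, and 3 of the 5 tested receptors did. The log2 change of Adgrl1 was -0.41 with an SE of 0.146, an unadjusted p of 0.031 and an adjusted p of 0.26 (limma), so it did not pass the threshold, and the litter differences were -0.52, -0.035 and -0.66. Without Runx3-/- 3 the change was -0.31 with an unadjusted p of 0.092. Over the 14 other settings it stayed negative, between -0.54 and -0.31, and was called in 0. Adgrl1 and Adgre5 are neighbours on chromosome 8. Adgrl2 had 8 probe sets, all below background on every array, the one of highest mean at 5.58, 5.61 and 5.63 in Runx3-/- arrays, against 5.58, 5.74 and 5.59 in WT arrays.

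Adgrf5 (GPR116), which restrains surfactant in the lung of the mouse and is known from endothelium, read 5.13, 5.10 and 5.14 in Runx3-/- arrays, against 5.01, 4.96 and 4.89 in WT arrays. It too was below background throughout. In all, 4 listed genes with 11 probe sets were below it, at values between 4.86 and 5.83 and with changes between -0.10 and 0.17. Of these 11 probe sets 5 had groups that did not overlap, against 11.5% of the 16250 probe sets below background in the whole table, and none of them was tested. A level below background bounds what the array can show and does not say that the gene is silent.

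**Figure D3:**
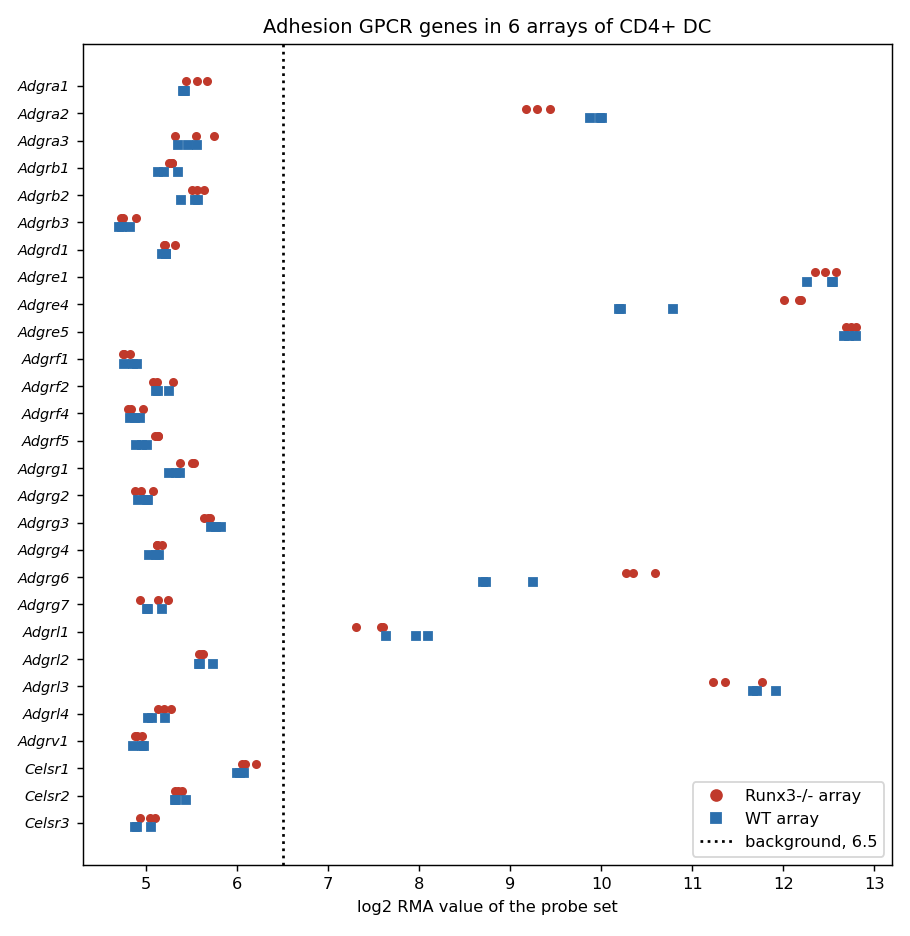
Log2 RMA value (horizontal axis) of 28 adhesion GPCR genes, the 9 listed and 19 others, with 1 probe set a gene. Circles are Runx3-/- arrays, squares WT arrays and the dotted line the background of 6.5; 7 genes lie above the line, and levels of different genes are not comparable because their probes differ.

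Of 20 further adhesion GPCR genes 19 were measured and 2 reached background. Adgra2 (GPR124) works with Reck as a coreceptor of Wnt7 in brain vessels. It read 9.17, 9.44 and 9.29 in Runx3-/- arrays, against 9.98, 9.88 and 10.01 in WT arrays, and the groups did not overlap. The log2 change was -0.66 (SE 0.091), or 1.58-fold lower in Runx3-/-, at an adjusted p of 0.032 (limma), beside 0.7% of all tested probe sets that were lower. With the litter as a block the adjusted p was 0.109, without Runx3-/- 3 the change was -0.65 with an adjusted p of 0.108, and over 14 other settings it ran between 0.0099 and 0.164 and 7 kept the call. Adgrl3, a latrophilin of neurons, had the highest mean probe set value of the further genes. It read 11.36, 11.76 and 11.23 in Runx3-/- arrays, against 11.91, 11.66 and 11.71 in WT arrays, with overlapping groups, a log2 change of -0.31 and an adjusted p of 0.39 (limma). The 17 others lay between 4.71 and 6.21.

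**Figure D4:**
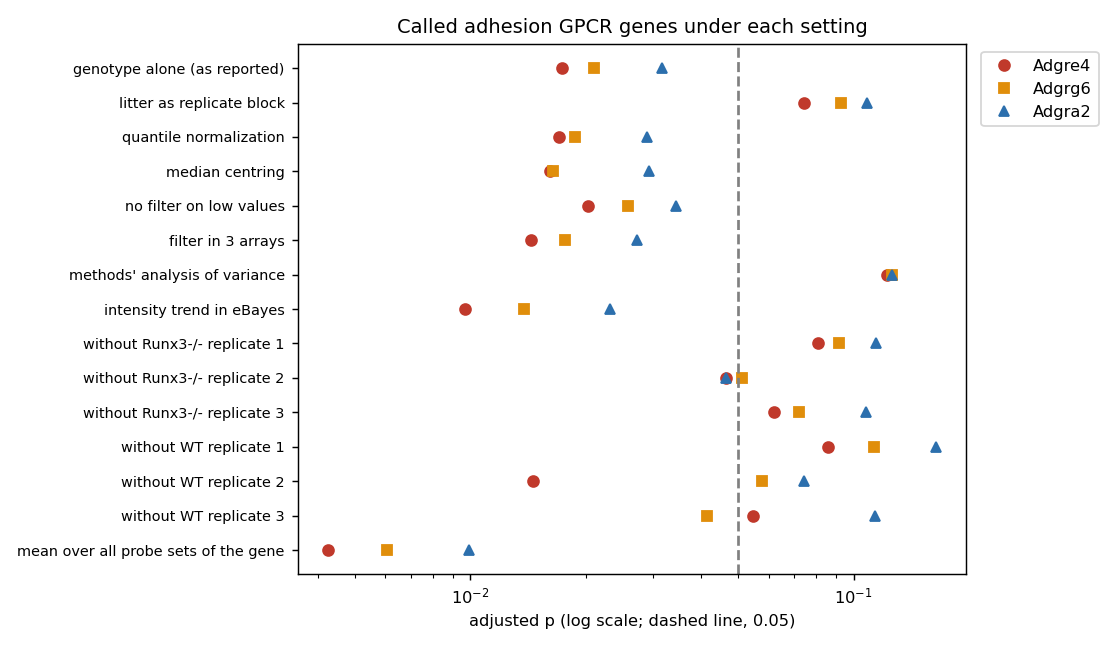
Adjusted p (horizontal axis, log scale) of Adgre4, Adgrg6 and Adgra2 in the reported fit and under 14 other settings (rows). The dashed line is 0.05; all of the 3 genes lie to its right with the litter as a block, and Adgre4 spans 0.0043 to 0.122.

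The genes whose values followed each called receptor most closely over the 6 arrays were listed as a description, from 9922 tested genes. For Adgre4 they were Kctd12b (Pearson r = 0.997), Slc6a20a (0.996) and Maf (0.995), which had changes of 0.60, 0.70 and 1.46. For Adgrg6 they were Sparc (0.995), Lmbrd2 (0.995) and Itgb1 (0.994), which had changes of 1.18, 0.27 and 0.27. Maf encodes a transcription factor of macrophages and Sparc a matrix protein. Of these 6 genes, Kctd12b, Slc6a20a, Maf and Sparc passed the adjusted threshold (0.031, 0.026, 0.023 and 0.022, limma). For Adgre1 they were Herpud1 (0.991), Phxr4 (0.986) and Bin2 (0.983), none of which differed by more than 0.045. All 6 arrays enter each value, so the shared genotypes alone raise the likeness between genes that differ between them. Adgre4 and Adgrg6 had r = 0.918 with each other and Adgre4 and Adgrl1 had -0.837, with 3 points of either genotype.

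In RefSeq order Pot1b, whose protein guards telomeres, precedes Adgre4, and this gene, chosen after its value was seen, was higher by 0.53 with an SE of 0.085 at an adjusted p of 0.048. Zfp119a, the neighbour on the other side, had a change of -0.0024 (adjusted p 0.99). Hivep2 and Vta1 next to Adgrg6 had changes of -0.23 and -0.052 (adjusted p 0.59 and 0.74, limma), and neither passed the threshold.

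Ligands and partners of these receptors did not pass the adjusted threshold. Of 27 measured, 11 reached background and 0 were called by limma, with 3 higher and 2 lower at an unadjusted p of 0.05, and 0 were called by the methods' analysis of variance, with 2 higher and 0 lower unadjusted. Their median change was 0.13. Cd55, the partner of CD97, read 5.91, 5.94 and 6.01 in Runx3-/- arrays, against 5.83, 5.64 and 5.72 in WT arrays, below background on all. So did Cd55b, Thy1, Col3a1 and the collagen genes Col4a1 and Col4a2. Itgb1, an integrin chain, read 11.52, 11.51 and 11.44 in Runx3-/- arrays, against 11.19, 11.18 and 11.27 in WT arrays, a change of 0.27 with an adjusted p of 0.12. Itga5, its partner in the fibronectin receptor, had a change of 0.55 (adjusted p 0.14), the tetraspanin Cd81 one of 0.71 (0.19) and the transglutaminase Tgm2, a partner of GPR56, one of -0.37 (0.23).

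Of the genes for G proteins, arrestins and other proteins that pass on such signals, 24 of 30 measured genes reached background. Of these 1 was called, against 1.56% of all tested probe sets, and it was Gng12, a G protein gamma subunit. It read 9.38, 8.91 and 9.37 in Runx3-/- arrays, against 7.95, 8.14 and 7.85 in WT arrays, without overlap and 2.36-fold higher in Runx3-/- (log2 change 1.24, SE 0.153, adjusted p 0.026, limma). The receptor kinase Grk5 had a change of 0.45 (adjusted p 0.079), Gna11 one of -0.39 (0.11) and Gng2 one of -0.31 (0.11), none of which passed. The list's median change was -0.019, near the -0.035 of all probe sets.

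Of 18 tested red pulp macrophage genes 9 passed the adjusted threshold, against 1.56% of all tested probe sets. All 9 were higher in Runx3-/- DC, as Adgre4 and Adgrg6 were, beside 0.856% of all tested probe sets that were higher. The list's median change was 1.23. One of the 9, Cd5l, reached background in Runx3-/- arrays alone, so no test is read from it. Among those that did not pass were the heme oxygenase Hmox1, which had a change of 0.22, and Cd68, a lysosomal protein, with one of -0.061 (adjusted p 0.60 and 0.79). Among the 9 were C1qa, a chain of complement C1q (2.54-fold), Nr1h3, the oxysterol receptor LXR alpha (2.86-fold), Spic, the transcription factor of red pulp macrophages (2.63-fold), and Epb41l3 (1.69-fold), with adjusted p of 0.014, 0.017, 0.021 and 0.016 (limma). The summed linear level of all 19 measured genes of the list, called or not, ran from 20103 to 25342 in Runx3-/- arrays, against 11716 to 15830 in WT arrays. Cd163, another gene of the list, was below background on all 6 arrays. The F4/80 gene Adgre1, which was not on the list, had a mean of 12.45 in WT DC already and a change of 0.013. Without Runx3-/- 3 the median was 1.26 with 15 higher at an unadjusted p of 0.05, and 0 called. Of 12 tested monocyte genes 10 were higher and 0 lower at an unadjusted p of 0.05 (limma), against 3042 of all 19149 tested probe sets in either direction. Past the limits of the methods 7 were higher, against 3.95% of all tested probe sets in either direction. After adjustment 1 was called, the chemokine receptor Cx3cr1 (2.59-fold higher in Runx3-/-, adjusted p 0.013), against 1.56% of all tested probe sets. The median change of the list was 0.96, and its summed level ran from 24376 to 26374 in Runx3-/- arrays, against 15774 to 18678 in WT arrays. The part of these cell types in the change of Adgre4 and Adgrg6 was not tested.

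**Figure D5:**
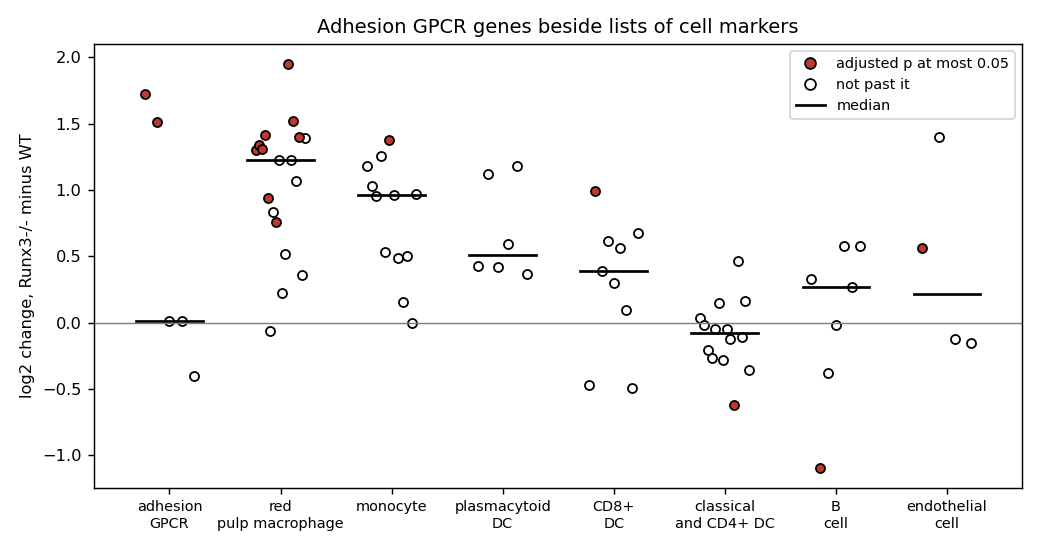
Log2 change, Runx3-/- minus WT (vertical axis), of the 5 tested receptor genes and of the tested genes of 7 marker lists, 1 point a gene. Filled points passed an adjusted p of 0.05. Of these, Cd5l (red pulp macrophage) and Cdh5 (endothelial cell) reached background in Runx3-/- arrays alone, so no test is read from them. The genes Fcrla (B cell), Cd8a (CD8+ DC) and Cox6a2 (plasmacytoid DC), open points, also reached background in Runx3-/- arrays alone. Lines mark the medians over all points drawn, which were 0.013 for the receptors and 1.23 for the red pulp macrophage list.

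Markers of DC themselves were present. All 14 classical and CD4+ DC genes reached background, 4 with a positive and 10 with a negative change and a median of -0.079. At an unadjusted p of 0.05, 1 was higher and 5 were lower (limma). After adjustment 1 was called, against 1.56% of all tested probe sets. It was Irf4, a transcription factor of CD4+ DC, which was 1.54-fold lower in Runx3-/- (adjusted p 0.043). Of 9 tested CD8+ DC genes 1 was called, Cadm1 (1.99-fold higher in Runx3-/-, adjusted p 0.013), against 1.56% of all tested probe sets. The list had a median of 0.39, or 0.20 without Runx3-/- 3. The median of 0.39 is the value of Cd8a, which reached background on array Runx3-/- 3 alone. At an unadjusted p of 0.05, 3 of the 9 were higher and 2 lower (limma). The 2 lower were Wdfy4, with a change of -0.49 (adjusted p 0.051), and Batf3, with one of -0.47 (adjusted p 0.20, limma). Of 6 plasmacytoid DC genes 0 were called by limma and 2 were higher at an unadjusted p of 0.05. Of these 2, Cox6a2 reached background in Runx3-/- arrays alone, so no test is read from it. The median change of the list was 0.51, or 0.24 without Runx3-/- 3. Its summed level ran from 1578 to 3952 in Runx3-/- arrays, against 1400 to 1508 in WT arrays.

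Of the other cell types, B cells had most of their listed genes above background. Of 9 measured genes 7 were tested, 4 with a positive and 3 with a negative change, and the median was 0.27, or 0.066 without Runx3-/- 3. The median of 0.27 is the value of Fcrla, one of the 4, which reached background on array Runx3-/- 3 alone. Blk, a B cell kinase, was 2.13-fold lower in Runx3-/- (adjusted p 0.023) and was the one that passed, against 1.56% of all tested probe sets. Cd79b, a chain of the B cell receptor complex, had a change of 0.58 (adjusted p 0.077), Ms4a1 one of 0.58 (0.41) and Cd22 one of -0.38 (0.15, limma). The B cell transcription factors Pax5 and Ebf1 were below background. The summed level of the list ran from 5629 to 6435 in Runx3-/- arrays, against 5515 to 6096 in WT arrays, ranges that overlapped.

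Of the granulocyte list 13 of 16 genes were below background, Ly6g, S100a8 and S100a9 included, and of the 3 tested 0 were called, with 1 higher at an unadjusted p of 0.05. That one was Csf3r, the receptor of a granulocyte growth factor, which had a change of 1.06 (adjusted p 0.15, limma). Another of the 3, Ngp, reached background on array Runx3-/- 1 alone. T and NK cell genes were below background for 12 of 13, Cd3e and Ncr1 included, and 0 of 1 was called, with 0 at an unadjusted p of 0.05. In the endothelial list 8 of 12 were below background, and the 4 others had 2 positive and 2 negative changes with a median of 0.22. Cdh5, VE-cadherin, read 6.80, 6.86 and 6.99 in Runx3-/- arrays, against 6.34, 6.24 and 6.37 in WT arrays, all of the WT values being below background, so no test is read from it. Kdr, a receptor of endothelial growth factor, had a change of 1.40 (adjusted p 0.14), Pecam1 one of -0.13 (0.67) and Vwf one of -0.15 (0.73, limma).

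Of 3 tested marginal zone macrophage genes 0 were called, with 2 higher and 1 lower at an unadjusted p of 0.05. Of the 2 higher, Siglec1 reached background in Runx3-/- arrays alone, so no test is read from it. Cd209d, a lectin of the DC-SIGN family, read 11.11, 10.02 and 11.58 in Runx3-/- arrays, against 9.75, 9.99 and 9.52 in WT arrays (adjusted p 0.23, limma). Its relative Cd209b read 9.36, 9.64 and 9.29 in Runx3-/- arrays, against 10.02, 10.47 and 9.69 in WT arrays (adjusted p 0.23, limma), so the pair had opposite signs. Of 2 tested erythroid genes 0 were called, with 1 lower at an unadjusted p of 0.05. The other, Car1, reached background on array Runx3-/- 1 alone. The part of any of these cell types in the receptor changes was not tested.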

How the data were processed

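RNA of sorted CD4+ splenic DC from 3 Runx3-/- and 3 WT mice was hybridised to 6 Affymetrix arrays, 1 mouse each. The authors used Partek to compute GC-corrected RMA summaries, deposited as log2 values. The submitters' notes name mm9, and software versions were not given in the sources used here. Probe set identifiers are those of a gene-level array, although an exon array is named in the methods. RMA gives the arrays a common distribution, so a shift shared by most genes would not be seen. Symbols came from the platform annotation, and the RefSeq table (GRCm38.p6) changed 0 of them.

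The log2 values were used as deposited. Of 35399 probe sets, 19149 with at least 6.5 on at least 1 array were tested with limma 3.58.1 in R 4.3.3 (lmFit and eBayes, two-sided, genotype alone, Benjamini-Hochberg over all tested), and the script was tested on simulated data. For a gene with several probe sets, the one of highest mean was used. Fold changes are ratios of geometric means. The number of arrays limits the precision. Same-numbered mice were litter mates per the labels, and their deviations from the group means correlated at 0.158, 0.102 and 0.246. For Runx3-/- and WT mice of different litters these correlations ran from -0.230 to 0.103.

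Named were all listed genes, further receptors that passed a threshold or were highest, the 4 genes of the ligand and signalling lists with the smallest p, up to 4 called genes of each marker list, and the 3 genes most like each called receptor and Adgre1. Other genes named from the lists, Siglech and those below background included, were chosen after their values were seen. The listed genes and all lists were chosen with earlier results of these data known, and are no independent evidence. Alternatives were the litter block, quantile normalization, median centring, other filters, the methods' analysis of variance, an intensity trend, the mean of a gene's probe sets, and each array left out. Of the listed genes 1 is not reported here.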

Additional observations from a re-analysis of the deposited data

How the results depend on the processing

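Adgre4, Adgrg6, Adgra2, Adgrl1 and Adgrl3 kept their direction under all 14 settings. With the litter as a replicate block, limma called 0 probe sets, 0 listed receptors and 0 further receptors, with 3430 probe sets and 3 of the 5 receptors at an unadjusted p of 0.05, so every call above is lost in that fit; the change of Runx3 was -1.98 with an adjusted p of 0.061. The methods' analysis of variance called 6 probe sets, 0 listed and 0 further receptors after adjustment, with 2816 probe sets unadjusted. Leaving out 1 array at a time gave 0 to 205 calls in all, 0 to 1 listed receptors and 0 to 1 further receptors. No probe set was called without WT 1 (1972 at an unadjusted p of 0.05) and 1 was called without Runx3-/- 3. Adgre4 kept its call without Runx3-/- 2 or WT 2, Adgrg6 without WT 3 and Adgra2 without Runx3-/- 2. The change of Runx3 then ran from -2.03 to -1.96, with an adjusted p of 0.054 without WT 1. The change of Adgre1 ran from -0.079 to 0.069 and that of Adgre5 from -0.018 to 0.045, both with a change of sign (without Runx3-/- 2, -0.045 and -0.013). The other settings, quantile normalization, median centring, both filters, the intensity trend and, for single genes, the mean of probe sets, kept the calls of Adgre4, Adgrg6 and Adgra2. The cause of the lost calls was not tested. With 3 arrays a group, fewer arrays leave fewer degrees of freedom. Probes of the related E subfamily genes were not examined for shared sequence.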
